A study of Mus musculus with 12 samples.

Results

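The genes described here are Mapt, which encodes tau, its relative Map2, the tau kinases Gsk3b, Cdk5 and Fyn, the Cdk5 activator Cdk5r1, and the Alzheimer genes App, Bin1 and Clu. They were chosen by symbol from the table of gene counts, and all 9 of the 9 symbols were found among its 24985 genes. All 9 also passed the filter on low counts, which 14742 genes passed. RNA came from the right dorsal hippocampus, the injected side, of 12 C57Bl6/J mice that carried no transgene. The mice were 6 months old when they received 1 unilateral injection of PBS or of 1 µg AD-tau, and the tissue was taken 6 months later, 24 h after a test of remote fear memory. The control diet was TestDiet chow and the acetate diet was LabDiet 5001 with 5% Na-acetate. The study's methods describe the control diet as matched in calories. Each of the 4 groups held 3 mice. They are named below by injection and diet (PBS-control and tau-control on the control diet, PBS-acetate and tau-acetate on the acetate diet), and were described as representative animals of larger cohorts. The purpose of the series was to examine how dietary acetate and pathological tau act together.

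Tau binds along axonal microtubules, and phosphorylation by several kinases loosens that binding. In Alzheimer's disease, phosphorylated tau collects in fibrils, and fibrils taken from human brain can seed the aggregation of a mouse's own tau protein, which is the basis of this model. AD-tau was a sarkosyl-insoluble protein extract of human Alzheimer frontal cortex, so the injection adds no gene, and the Mapt counts report only the messenger RNA of the mouse's own gene. MAP2 is a microtubule-associated protein of dendrites and cell bodies. GSK3β, CDK5 with its activator p35 (from Cdk5r1) and the Src-family kinase FYN phosphorylate tau at different residues. APP is the precursor of amyloid-β, while BIN1, a membrane-curvature protein, and clusterin, a secreted chaperone made largely by astrocytes, are encoded at loci associated with Alzheimer's disease risk. None of these measurements reports protein, phosphorylation or aggregation.

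On GRCm38 (annotated from GENCODE release 21), Mapt lies at chr11:104231390-104332090 and Map2 at chr1:66175273-66442583, both on the plus strand. Among the kinases, Gsk3b lies at chr16:38089001-38246084 on the plus strand, Cdk5 at chr5:24418241-24423530 on the minus strand and Fyn at chr10:39368855-39565381 on the plus strand. The single-exon gene Cdk5r1 lies at chr11:80477023-80481184 on the plus strand. App is at chr16:84949685-85173766 on the minus strand and Clu at chr14:65968483-65981547 on the plus strand. The counts are of reads on merged exons, UTRs included, and no exon of the 9 genes overlapped another gene's exon on the same strand. Overlaps on the opposite strand covered 0.75% of the Map2 exons, 0.87% of the App exons and 6.22% of the Bin1 exons, and the authors counted by strand.

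The RefSeq promoter table (GRCm38.p6) held 4 of the 9 genes, Map2, Gsk3b, Fyn and App. The 250 bases before the RefSeq start are printed for Map2 and Gsk3b, a microtubule-protein gene and a kinase gene, because these were the members of the table with an unadjusted p below 0.05 in at least 1 comparison below. They are read 5′ to 3′ on the plus strand, from chr1:66175079-66175328 for Map2 and chr16:38088751-38089000 for Gsk3b. Capitals mark the GC box (GGGCGG, either strand) in Map2 and the CCAAT box (CCAAT, either strand) in Gsk3b.
Map2: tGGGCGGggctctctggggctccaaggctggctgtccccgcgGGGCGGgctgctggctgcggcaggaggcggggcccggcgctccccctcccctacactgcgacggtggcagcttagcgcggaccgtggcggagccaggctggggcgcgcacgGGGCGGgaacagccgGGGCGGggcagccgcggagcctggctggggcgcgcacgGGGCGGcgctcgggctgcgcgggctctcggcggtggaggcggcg
Gsk3b: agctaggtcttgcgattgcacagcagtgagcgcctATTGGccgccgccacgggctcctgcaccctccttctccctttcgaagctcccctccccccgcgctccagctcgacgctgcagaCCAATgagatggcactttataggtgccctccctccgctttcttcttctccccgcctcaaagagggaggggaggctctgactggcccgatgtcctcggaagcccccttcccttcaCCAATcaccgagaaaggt
The Map2 window was 81.2% G and C with 34 CpG dinucleotides, against medians of 52.4% and 6.0 over the 32851 promoters of the table, and it held 5 GC boxes. At least 1 GC box occurred in 32.7% of all promoters of this length and at least 3 occurred in 8.47%. The Gsk3b window was 62.0% G and C with 15 CpG dinucleotides, 0 GC boxes and 3 CCAAT boxes. At least 1 CCAAT box was found in 33.8% of promoters and at least 3 in 2.79%. Fyn had 1 GC box and 1 CCAAT box, and App had 1 GC box. These matches describe letters only. No factor binding was measured.

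Gene counts summed to between 12983233 and 20218340 a mouse, and TMM factors lay between 0.99 and 1.01. The mice are labelled male, but Xist, which the inactive X chromosome transcribes, stood at 910 to 1353 CPM (counts scaled to library size) in all 12 libraries and the Y-linked genes Ddx3y, Eif2s3y, Kdm5d and Uty had 0 counts in each. The groups did not differ in this respect. All listed markers of hippocampal neurons, including CA1, CA3 and dentate granule cells, were detected in all 12 mice, as were markers of glia, choroid plexus, thalamus and striatum. Replicates of a group are separate mice. The values are of bulk tissue, in which fewer cells of a type and less RNA per cell cannot be told apart.

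Read counts scale with transcript length, so levels were compared between genes as CPM per kilobase (kb) of merged exon. Lengths are those of GENCODE release 21, and the annotation release used for the counting is not given in the sources used here, which makes these levels approximate. Merged exons take in every annotated isoform, so the divisor can exceed the length of the transcripts present, by an amount that can differ between genes. Levels per transcript length were not computed, so the order below holds for merged exons only. Before division by length App had the highest mean of the 9, at 1814 CPM against 842 CPM for Clu. Per kb of merged exon Clu was the highest of the 9 at 245 ± 13.5 CPM per kb (mean ± SD, n = 12 mice), followed by App at 140 ± 5.69. Mapt (78.1 ± 4.55), Map2 (75.1 ± 5.86), Bin1 (74.3 ± 4.73) and Cdk5r1 (70.8 ± 3.26) followed, with the ranges over mice overlapping between each neighbouring pair. Cdk5 stood at 40.6 ± 0.93, Fyn at 34.1 ± 0.85 and Gsk3b at 24.7 ± 1.09 CPM per kb. The ranges of these 3 kinases overlapped neither each other nor those of the genes above. Per kb of merged exon, the activator gene Cdk5r1 was therefore at a higher level than Cdk5, the gene of the kinase it activates, in every mouse.

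**Figure D1:**
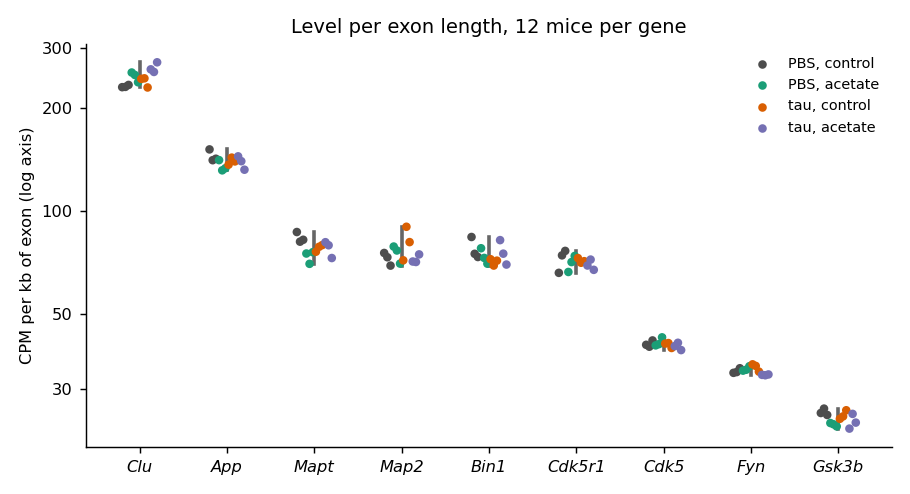
Level of the 9 genes in CPM per kb of merged exon (logarithmic axis), 1 point per mouse coloured by group, with a vertical line from the lowest to the highest of 12 mice. Clu spans 230 to 272 and Gsk3b 23.0 to 26.4 CPM per kb, while Mapt, Map2, Bin1 and Cdk5r1 share overlapping ranges.

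The 9 genes varied little between mice, but they were also highly counted. Their mean CPM lay above those of 81.3% (Cdk5) to 99.9% (App) of tested genes. Counting error is smaller at such levels, and the background below was not matched by level. The coefficient of variation of CPM over all 12 mice was lowest for Cdk5 (2.28%) and Fyn (2.49%) and highest for Map2 (7.79%), with Mapt at 5.82%. The median over the 10015 genes of at least 10 CPM was 7.28%, and Map2 alone of the 9 was above it. The highest mouse had 1.08 times the level of the lowest for Fyn, 1.09 times for Cdk5, 1.24 times for Mapt and 1.3 times for Map2.

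Differences were tested with edgeR's quasi-likelihood F test over all 14742 genes and a gene was called where its p, adjusted by Benjamini-Hochberg, was below 0.1. Of the 9 genes, Mapt was called, in 1 of the 5 comparisons: it was lower in PBS-acetate than in PBS-control mice, a comparison in which 8.84% of all genes were called in either direction and 4.85% were called lower. For tau against PBS, 0 of 9 were called on the control diet (0.0136% of all genes) and 0 of 9 on the acetate diet (0.136%). For tau-acetate against tau-control mice, 0 of 9 were called (0.0611%), and for the interaction of diet and injection 0 of 9 (1.56%). DESeq2 called the same single gene in the first of these comparisons and 0 of 9 in each of the other 4, against backgrounds of 6.99% there and 0.438%, 0.571%, 0.892% and 2.21% in the order given.

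At an unadjusted p below 0.05, 2 of 9 genes passed for acetate in PBS-injected mice (Mapt and Gsk3b, against 20.8% of all genes). The counts were 1 of 9 for tau on the control diet (Map2, 9.65%), 0 of 9 for tau on the acetate diet (10.3%), 2 of 9 for acetate in tau-injected mice (Map2 and Clu, 10.9%) and 2 of 9 for the interaction (Mapt and Map2, 13%). Group values that did not overlap were found for 3 of 9 genes for acetate in PBS-injected mice (26.3% of all genes), for 2 of 9 for tau on the control diet (13.5%), for 2 of 9 for tau on the acetate diet (16.2%) and for 2 of 9 for acetate in tau-injected mice (14.4%). An exact permutation test of 3 mice against 3 cannot give a p below 0.1. The median absolute log2 fold change of the 9 genes was 0.05, 0.04, 0.07 and 0.06 in the control-diet tau, acetate-diet tau, PBS-injected acetate and tau-injected acetate comparisons, against 0.09, 0.09, 0.12 and 0.09 over all genes. That background was not matched by level and includes many genes with fewer counts. The 4 comparisons use each group in more than 1 of them, so they are not independent of each other.

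**Figure D2:**
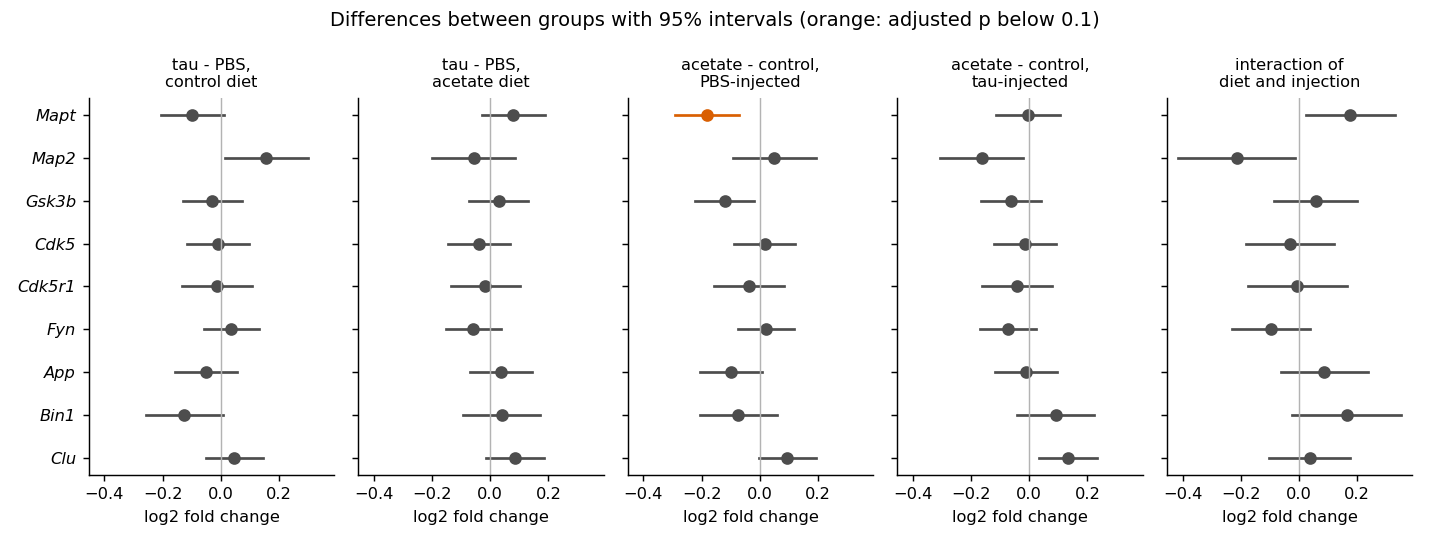
Log2 fold change of each gene (point) with its 95% confidence interval (line) from edgeR's fit over 12 mice, 1 panel for each of 4 comparisons between groups and 1 for the interaction. Mapt on the acetate diet in PBS-injected mice, at -0.18, is the called value (orange), and the bounds of all intervals of the 4 comparisons between groups lie within 0.31 of 0.

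Mapt, the gene of tau itself, was highest in PBS-control mice, at 653, 612 and 620 CPM (628 ± 21.8, SD, n = 3). PBS-acetate mice had 565, 527 and 570 CPM (554 ± 23.5, SD, n = 3). The highest of the acetate-fed mice was below the lowest of the control-fed mice. Mapt was 0.18 lower on the log2 scale with acetate (log2 fold change -0.18, SE 0.05, 95% interval -0.29 to -0.07, edgeR adjusted p = 0.0557). This is a level that fell by 11.8%, with an interval of -18.2% to -4.93%. The call was lost when any 1 of 4 mice was left out, with adjusted p = 0.175 without PBS-control mouse 1, 0.134 without PBS-control mouse 3, 0.123 without PBS-acetate mouse 1 and 0.273 without PBS-acetate mouse 2, while the log2 fold change stayed between -0.20 and -0.14.

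In tau-injected mice Mapt stood at 572, 591 and 598 CPM on the control diet (587 ± 13.6, SD, n = 3) and at 609, 597 and 548 CPM on the acetate diet (585 ± 32.6, SD, n = 3). These groups overlapped, and the log2 fold change with acetate was 0.00 (interval -0.11 to 0.10, edgeR adjusted p = 0.987). On the control diet all tau-injected mice were below all PBS-injected mice, with a log2 fold change of -0.10 (interval -0.21 to 0.01, adjusted p = 0.591). On the acetate diet the log2 fold change of tau against PBS was 0.08 (interval -0.03 to 0.19, adjusted p = 0.638), and the groups overlapped. The diet effect differed between the injections by 0.18 on the log2 scale (interval 0.02 to 0.33), which did not pass adjustment by edgeR over all genes (adjusted p = 0.309). A diet effect in PBS-injected mice alone was thus not shown to differ from that with tau.

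**Figure D3:**
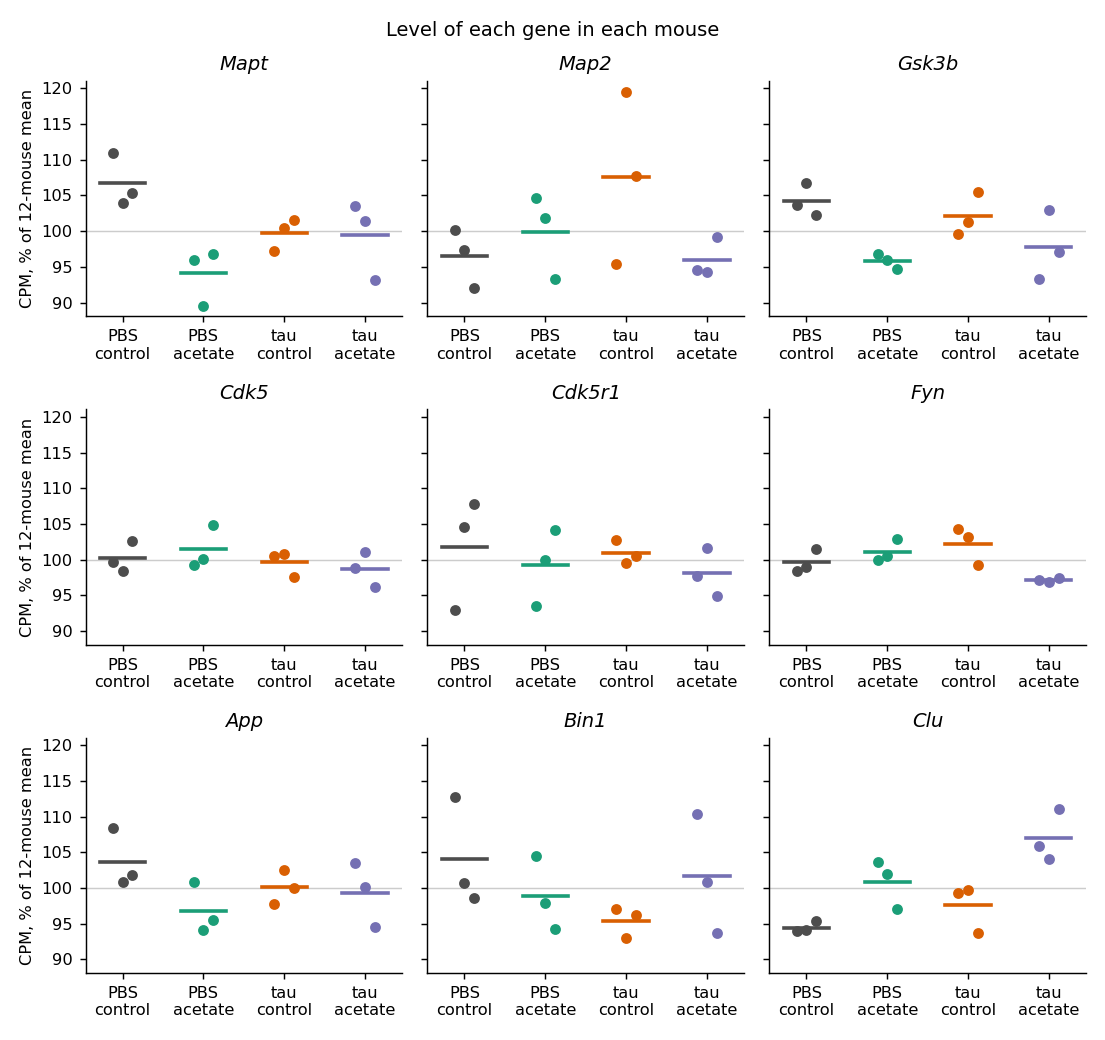
CPM of each gene in each mouse as a percent of that gene's mean over 12 mice, on 1 shared scale, with points for mice and a line for the group mean. Mapt is above its mean in all PBS-control mice and below it in all PBS-acetate mice, Clu has its lowest mean in the first of these groups, and Map2 is widely spread in tau-control mice.

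Markers of several cell types also differed in the comparison in which Mapt was called, some lower like Mapt and some higher. For PBS-acetate against PBS-control mice, 12 of 12 oligodendrocyte markers were below 0 (median log2 fold change -0.61, 5 called lower), 6 of 6 CA3 markers were below 0 (median -0.84, 4 called lower) and 5 of 5 CA1 markers were above 0 (median 0.68, 4 called higher). Of 7 general neuron markers, 4 were called lower (median -0.17), among them Snap25, a synaptic vesicle fusion protein, at -0.40, and Nefl, the light neurofilament, at -0.30, both singled out after their values were seen. The summed oligodendrocyte level was 7399 to 9540 CPM in PBS-control mice and 4629 to 6383 CPM on the acetate diet, and in tau-injected mice it was 4910 to 5960 CPM on the control diet and 5590 to 8982 CPM on the acetate diet. The summed CA3 level was 448 to 540 CPM in PBS-control mice, 236 to 388 on the acetate diet, 340 to 432 with tau on the control diet and 266 to 410 with tau on the acetate diet. For CA1 the same ranges were 452 to 589, 718 to 946, 606 to 767 and 653 to 935 CPM. Summed neuron markers were 8016 to 8771, 6817 to 7821, 8041 to 8179 and 6875 to 7659 CPM in the same order. Thalamic markers were 106 to 276 CPM in PBS-control mice and 52.5 to 96.8 CPM in the other 9 mice, and choroid plexus markers ranged from 65.0 to 480 CPM over all mice. Of the remaining lists in this comparison, oligodendrocyte precursor (5 genes), astrocyte (6) and striatum (6) each had 1 gene called higher and 1 lower, choroid plexus (6) and thalamus (6) each had 1 called lower, and 0 genes were called among markers of dentate granule cells, inhibitory neurons, microglia and endothelium. No listed marker was at 0 in any library.

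Adding the mean log2 level of the oligodendrocyte markers to the fit left Mapt at -0.09 for acetate in PBS-injected mice (SE 0.07, edgeR adjusted p = 0.662), and adding the CA1 minus the CA3 marker level left it at -0.06 (SE 0.08, adjusted p = 0.968). These fits called 2 and 0 of all genes in the comparison, against 1303 without a marker term. Neither marker measure overlapped between PBS-control and PBS-acetate mice. The part of the marker genes' levels in the Mapt result was not tested beyond these fits.

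**Figure D4:**
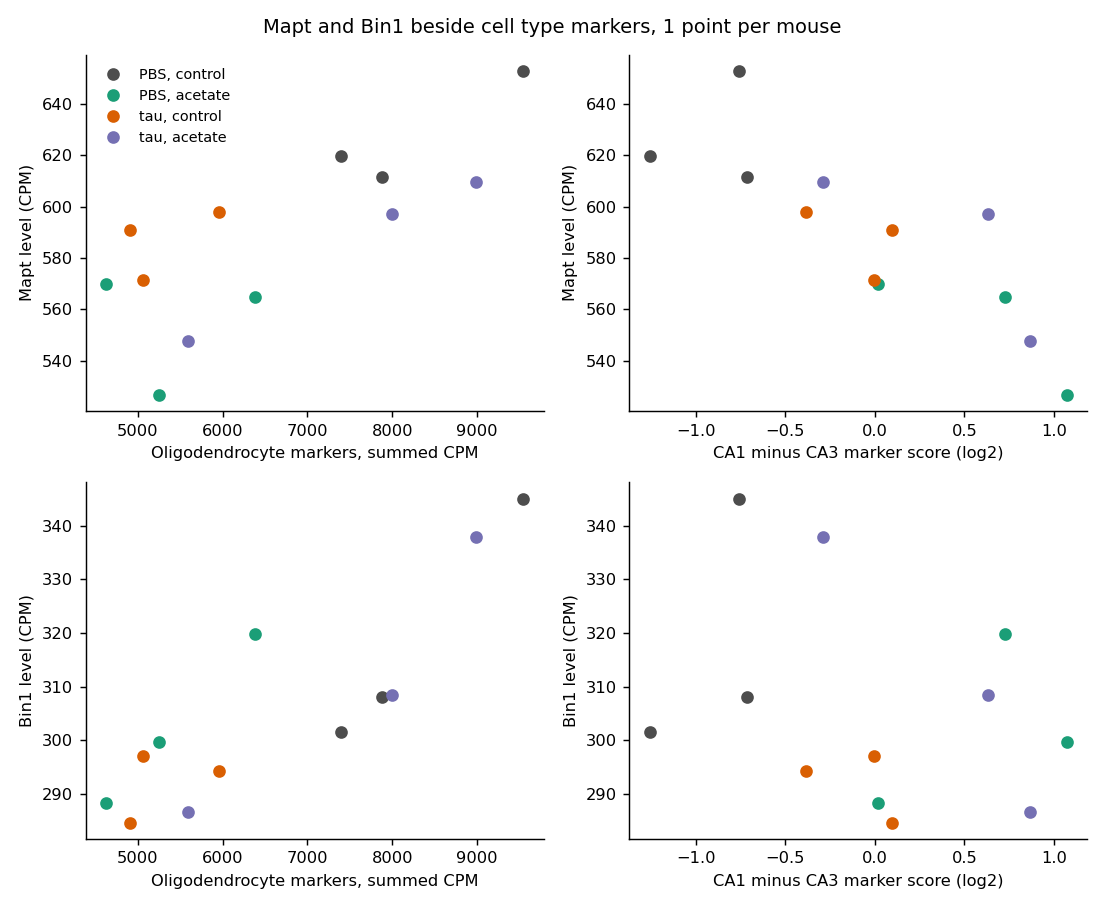
Mapt (upper panels) and Bin1 (lower panels) in CPM against the summed CPM of 12 oligodendrocyte markers (left) and against the mean log2 level of CA1 markers minus that of CA3 markers, each gene centred on its mean (right), 1 point per mouse coloured by group. The PBS-injected control-diet mouse with the highest summed oligodendrocyte level (9540 CPM) also had the highest Mapt (653 CPM) and Bin1 (345 CPM), and the mouse with the lowest Mapt (527 CPM) had 5247 CPM of oligodendrocyte markers. By contrast, the mouse with the lowest summed oligodendrocyte level (4629 CPM, PBS-acetate) had the highest Mapt of its group (570 CPM).

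Map2, the dendritic relative of tau, did not follow Mapt. PBS-injected mice had 1238, 1203 and 1137 CPM on the control diet (1193 ± 51.4, SD, n = 3) and 1293, 1259 and 1152 CPM on the acetate diet (1235 ± 73.2, SD, n = 3). Tau-injected mice had 1178, 1477 and 1332 CPM on the control diet (1329 ± 149, SD, n = 3) and 1169, 1165 and 1226 CPM on the acetate diet (1187 ± 34.3, SD, n = 3). The highest group mean, in tau-control mice, came with the widest spread, and 1 of its 3 mice was within the range of the PBS-injected mice. Tau against PBS on the control diet gave a log2 fold change of 0.16 (interval 0.01 to 0.30, edgeR adjusted p = 0.473). Acetate in tau-injected mice gave -0.16 (interval -0.31 to -0.02, adjusted p = 0.401), from the same tau-injected control-diet mice. Without tau-control mouse 2, the highest, these values were 0.07 and -0.08, and over all single mice left out they ranged from 0.07 to 0.24 and from -0.24 to -0.08. The remaining values were 0.05 for acetate in PBS-injected mice, -0.06 for tau on the acetate diet and -0.21 for the interaction (adjusted p = 0.356).

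Among the tau kinases, Gsk3b had the largest difference. It stood at 252, 259 and 248 CPM in PBS-control mice (253 ± 5.55, SD, n = 3) and at 235, 233 and 230 CPM on the acetate diet (233 ± 2.67, SD, n = 3), and these groups did not overlap. The log2 fold change was -0.12 (interval -0.22 to -0.02), which did not pass adjustment by edgeR (adjusted p = 0.162). In tau-injected mice the levels were 242, 246 and 256 CPM on the control diet and 226, 250 and 236 CPM on the acetate diet, with a log2 fold change of -0.06 (adjusted p = 0.688). Tau against PBS gave -0.03 on the control diet and 0.03 on the acetate diet.

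Cdk5 lay between 84.8 and 92.4 CPM in all 12 mice and had the lowest coefficient of variation of the 9 genes (2.28%, against 2.49% for Fyn). Its group means were 88.3 ± 1.92 in PBS-control mice, 89.4 ± 2.63 in PBS-acetate mice, 87.8 ± 1.58 in tau-control mice and 87.0 ± 2.14 in tau-acetate mice (SD, n = 3 each). The 4 log2 fold changes between groups lay between -0.04 and 0.02, and every 95% interval lay between -0.14 and 0.12. Cdk5r1 varied more, from 274 to 318 CPM, and both of these extremes came from PBS-control mice (274, 308 and 318 CPM). Its group means were 300.0 ± 23.0, 292 ± 15.8, 297 ± 4.79 and 289 ± 10.0 CPM in the same order, with log2 fold changes from -0.04 to -0.01 and intervals between -0.16 and 0.11.

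Fyn stood at 144, 144 and 145 CPM in tau-acetate mice (144 ± 0.39, SD, n = 3). At 2254 to 2913 counts in these mice, counting error alone exceeds this SD. These mice were below all tau-control mice (155, 153 and 148 CPM) and below all PBS-acetate mice (149, 149 and 153 CPM). The log2 fold changes were -0.07 (interval -0.17 to 0.02, edgeR adjusted p = 0.586) and -0.06 (interval -0.15 to 0.04, adjusted p = 0.708). PBS-control mice had 146, 147 and 151 CPM. The other differences between groups were 0.04 for tau on the control diet and 0.02 for acetate in PBS-injected mice, and the interaction was -0.10 (adjusted p = 0.588).

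App, the amyloid precursor gene and the most counted of the 9, stood at 1966, 1828 and 1846 CPM in PBS-control mice (1880.3 ± 74.9, SD, n = 3) and at 1829, 1708 and 1732 CPM on the acetate diet (1756 ± 64.4, SD, n = 3). The groups touched at the highest PBS-acetate mouse and the lowest PBS-control mouse. The log2 fold change was -0.10 (interval -0.20 to 0.01, edgeR adjusted p = 0.280). Tau-injected mice had 1774, 1860 and 1813 CPM on the control diet and 1876, 1816 and 1715 CPM on the acetate diet, a log2 fold change of -0.01. Tau against PBS gave -0.05 on the control diet and 0.04 on the acetate diet, and the interaction was 0.09 (adjusted p = 0.674).

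Bin1 was lower in all 3 tau-injected mice (297, 285 and 294 CPM, 292 ± 6.49) than in all 3 PBS-injected mice (345, 308 and 302 CPM, 318 ± 23.5, SD, n = 3 each) on the control diet. The log2 fold change was -0.12 (interval -0.26 to 0.01, edgeR adjusted p = 0.560), and without PBS-control mouse 1, the highest of all 12, it was -0.06. PBS-acetate mice had 320, 300 and 288 CPM and tau-acetate mice 338, 308 and 287 CPM, which overlapped. The log2 fold changes were 0.04 for tau on the acetate diet, -0.07 for acetate in PBS-injected mice, 0.09 for acetate in tau-injected mice and 0.16 for the interaction (adjusted p = 0.464). Oligodendrocyte markers, which had the same sign as Bin1 in each of these comparisons, had median log2 fold changes of -0.62 for tau on the control diet, 0.47 for tau on the acetate diet, -0.61 and 0.52 for acetate in PBS-injected and tau-injected mice, and 1.11 for the interaction, with all 12 markers on the same side each time. Thalamus markers also had these signs, with medians of -1.15, 0.26, -1.41, 0.36 and 1.40 in the same order. So did striatum markers, with medians of -0.08, 0.07, -0.0017, 0.17 and 0.08. The part of any of these markers in the Bin1 values was not tested.

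Clu, the clusterin gene, was lowest on average in PBS-control mice, at 791, 793 and 803 CPM (796 ± 6.53, SD, n = 3), and highest in tau-acetate mice, at 892, 877 and 936 CPM (901 ± 30.5, SD, n = 3). PBS-acetate mice had 873, 859 and 818 CPM, and tau-control mice 837, 840 and 789 CPM. With acetate, Clu was higher without overlap in both PBS-injected mice (log2 fold change 0.10, interval 0.00 to 0.19, edgeR adjusted p = 0.260) and tau-injected mice (0.13, interval 0.03 to 0.23, adjusted p = 0.310). Neither value passed adjustment. Tau against PBS on the acetate diet gave 0.08 without overlap (interval -0.01 to 0.18, adjusted p = 0.552), and the interaction was 0.04 (adjusted p = 0.880). Summed astrocyte markers were 4123 to 4401 CPM in PBS-control mice, 4116 to 4562 CPM in PBS-acetate mice, 4387 to 4604 CPM in tau-control mice and 4414 to 4497 CPM in tau-acetate mice. For acetate in PBS-injected mice 1 of 6 astrocyte markers was called higher and 1 lower, and in tau-injected mice 0 of 6 were called.

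The wider pathways were read from 5 lists of canonical genes, of which 134 of 137 genes were tested. For PBS-acetate against PBS-control mice, 21 of 134 were called, 3 higher and 18 lower, where 8.84% of all genes were called. The median log2 fold change of the 134 genes was -0.03, against 0.00 over all genes. For tau, 0 of 134 were called on the control diet (0.0136% of all genes) and 0 of 134 on the acetate diet (0.136%). The counts were 0 of 134 for acetate in tau-injected mice (0.0611%) and 1 of 134 for the interaction (1.56%). At an unadjusted p below 0.05 the counts were 14, 10, 20 and 17 of 134 in these 4 comparisons, where 9.65%, 10.3%, 10.9% and 13% of all genes passed. DESeq2 called 0 of 134, 1 of 134 (the microtubule gene Dcx), 2 of 134 (Mapk8 and Stmn2) and 5 of 134 there (Apbb2, Dclk1, Dcx, Map7 and Tubb4a). These genes, named after their values were seen, are those behind the DESeq2 counts.

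Of 29 microtubule genes, 7 were called for acetate in PBS-injected mice, 1 higher and 6 lower (median -0.08). Over all genes, 8.84% were called in either direction and 4.85% were called lower. Dclk1, a doublecortin-like kinase that binds microtubules, rose from 622, 641 and 615 CPM to 755, 773 and 708 CPM (log2 fold change 0.25, SE 0.06, adjusted p = 0.0243). Mapre2, a plus-end binding protein, fell from 291, 290 and 292 CPM to 252, 256 and 267 CPM (-0.17, SE 0.04, adjusted p = 0.0402). The kinesin gene Kif5c fell from 1177, 1137 and 1178 CPM to 1039, 996 and 1047 CPM (-0.18, SE 0.05, adjusted p = 0.0425). Besides Mapt, the remaining called genes, named after their values were seen, were Stmn2 (-0.48), a neuronal regulator of microtubule assembly, and the tubulin genes Tuba1a (-0.22) and Tubb4a (-0.34). All of these are edgeR values.

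Of 34 genes of tau kinases and their activators, 2 were called and both were lower (median of the list 0.00). That count lay near the background, since 8.84% of all genes were called in either direction and 4.85% were called lower. Mapk8, which encodes the stress kinase JNK1, fell from 104, 110 and 111 CPM to 95.2, 93.2 and 98.6 CPM (-0.18, SE 0.05, edgeR adjusted p = 0.0529), and in tau-injected mice its value was -0.18 as well (adjusted p = 0.208). Of 21 tau phosphatase genes, 5 were called and all were lower (median -0.07). They included the protein phosphatase 2A regulatory subunits Ppp2r2a (-0.22, adjusted p = 0.0251), Ppp2r2c (-0.19, adjusted p = 0.0379) and Ppp2r5c (-0.22, adjusted p = 0.0413). The catalytic subunits Ppp2ca (-0.18) and Ppp3cb (-0.18), of phosphatase 2A and calcineurin, made up the 5 and were named after their values were seen.

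Of 20 tested genes of amyloid precursor processing, 3 were called, 1 higher and 2 lower. For this list and the next, the shares over all genes were 8.84% called in either direction and 4.85% called lower. Apbb2, an adaptor that binds the tail of APP, fell from 60.1, 62.0 and 62.8 CPM to 45.8, 45.6 and 51.4 CPM (-0.37, SE 0.08, edgeR adjusted p = 0.0195). Aplp2, a paralog of App, fell by 0.17 on the log2 scale (adjusted p = 0.0413), and the lipoprotein receptor gene Lrp1 rose by 0.24 (adjusted p = 0.0487). Of 31 tested Alzheimer risk genes, 3 were called lower, namely Picalm (-0.19, adjusted p = 0.0469), a clathrin adaptor, Blnk (-0.99, adjusted p = 0.0712) and Tmem106b (-0.15, adjusted p = 0.0934), a lysosomal membrane protein. Blnk was low, at 3.55 to 10.2 CPM in the 6 mice compared. Apoe, the apolipoprotein E gene, named after its value was seen, was called higher at 0.19 (adjusted p = 0.0961). The count of 21 was 9 without PBS-control mouse 1, 3 without PBS-control mouse 3, 4 without PBS-acetate mouse 1 and 0 without PBS-acetate mouse 2, and 11 at an adjusted p below 0.05. The same markers of CA1, CA3, oligodendrocytes and neurons that moved beside Mapt moved in this comparison, and their part in these calls was not tested.

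**Figure D5:**
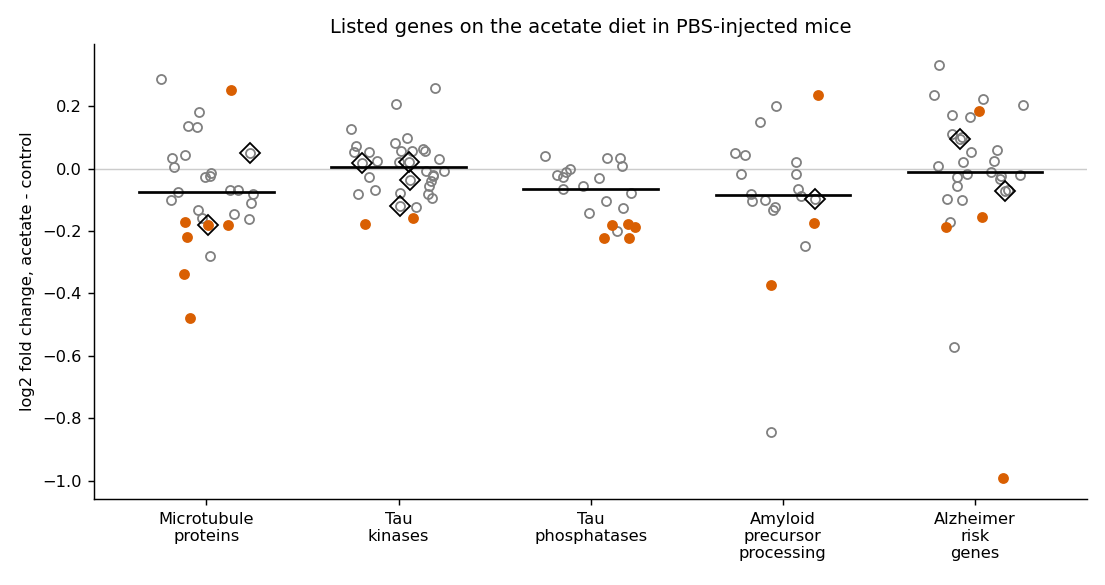
Log2 fold change of PBS-acetate against PBS-control mice for each tested gene of 5 lists, with called genes filled in orange, medians as black bars and the 9 genes described here inside diamonds. Called genes number 7, 2, 5, 3 and 4 from left to right, most of them below 0, and a gene on 2 lists appears in both.

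For tau against PBS, the listed genes with the smallest p are given although none passed adjustment. On the control diet these were Dclk1 (0.19, edgeR adjusted p = 0.303), the tau-tubulin kinase gene Ttbk1 (0.17, adjusted p = 0.375), Ppp2r5c (-0.17, adjusted p = 0.357), Lrp1 (0.23, adjusted p = 0.296) and Abi3 (0.40, adjusted p = 0.508). On the acetate diet they were Dcx (-0.56, adjusted p = 0.173), Ttbk1 (0.17, adjusted p = 0.330), Ppp2r2c (0.13, adjusted p = 0.329), Apbb2 (0.17, adjusted p = 0.461) and Cd2ap (-0.24, adjusted p = 0.361). For acetate in tau-injected mice they were Dcx (-0.46, adjusted p = 0.276), Mapk8, Ppp3cb (-0.16, adjusted p = 0.276), Aplp1 (0.10, adjusted p = 0.484) and Clu. For the interaction, beside Dclk1, they were Lck (-0.95, adjusted p = 0.413), Ppp2r5c (0.23, adjusted p = 0.227), Apbb2 (0.39, adjusted p = 0.111) and Adamts4 (1.08, adjusted p = 0.274).

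The genes whose levels ran most like Mapt over the 12 mice, among 10014 genes of at least 10 CPM, were Tmeff2 (Pearson r 0.955), Tppp (0.928), Slco3a1 (0.926), Fbxo45 (0.926) and Sept8 (0.922). Map2 was nearest to A830010M20Rik (0.964) and Gprasp1 (0.957), App to Rapgef4 (0.915) and Sept8 (0.914), and Bin1 to Myh14 (0.940) and Mcam (0.938). Clu was nearest to Slc8a3 (0.893) and Wwc2 (0.892), Gsk3b to Tmem106b (0.950) and Pdia6 (0.943), and Cdk5 to Ndufa6 (0.894) and Gm12338 (0.894). Cdk5r1 was nearest to Lrrc57 (0.906) and Mypop (0.868), and Fyn to Atp1b1 (0.874) and Nipsnap1 (0.874). Among the 9 genes themselves, Mapt and App were the most alike (r = 0.895, and 0.846 for deviations from the group means), while Mapt and Map2 were not (r = -0.12). These are descriptions over mice that share groups, dissection and library, and high values are found by searching many genes.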

How the data were processed

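Poly(A) RNA was sequenced with a directional kit from 12 mice, 3 per group, all harvested on 1 day and processed together. Per the methods and processing notes, the authors aligned reads with STAR 2.5.2a to GRCm38 and counted them on exons by strand with HTSeq 0.9.1. The annotation release is not given in the sources used here. The authors deposited raw counts per gene (24985 genes, 5357 at 0 in every mouse), with no normalization. Groups came from the sample titles.

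From these counts, genes were kept by filterByExpr (minimum count 10, minimum total 15), normalized by TMM, and fitted with edgeR 4.0.16 (robust quasi-likelihood F test, R 4.3.3, limma 3.58.1) with 1 mean per group over all 12 mice and 8 residual degrees of freedom. The Benjamini-Hochberg adjustment ran over all 14742 genes. Standard errors come from the F statistic. CPM are TMM-scaled. The common biological coefficient of variation, 1 value for all tested genes, was 7.25%. It does not describe each of the 9 genes. The coefficient of variation of CPM, counting error included, was 2.28% for Cdk5 and 2.49% for Fyn. DESeq2 1.42.0 was the alternative tool. Scripts were tested on simulated data.

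The members and gene lists were chosen with earlier results of these data known. Named genes were the 9 members, for each list the 3 called genes with the smallest p or else the smallest-p gene, and the genes with the highest Pearson r to each member (log2 CPM, prior count 2). Alternatives were DESeq2, its size factors, no filter, the 6 compared mice, an adjusted p below 0.05, marker covariates, a replicate block and each mouse left out. The covariate values of Mapt were added after seeing the data. Mice were not paired by replicate number. One gene that the naming rule picked is not reported here by name.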

Additional observations from a re-analysis of the deposited data

Results flagged for a closer look

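For Dclk1, a microtubule-binding kinase gene, the interaction of diet and injection was called (log2 -0.30, SE 0.08, edgeR adjusted p = 0.0874). It was the 1 gene called of 134 listed, where 1.56% of all genes were called, so this count was not above the background. With acetate Dclk1 rose by 0.25 on the log2 scale in PBS-injected mice (adjusted p = 0.0243) and the value in tau-injected mice was -0.05 (adjusted p = 0.803). Levels were 622, 641 and 615 CPM in PBS-control mice, 755, 773 and 708 in PBS-acetate mice, 699, 739 and 707 in tau-control mice and 636, 702 and 736 in tau-acetate mice. The interaction was called in 2 of 12 fits with 1 mouse left out (without PBS-acetate mouse 3 and without tau-acetate mouse 3), where the difference ranged from -0.35 to -0.24 and the adjusted p from 0.0347 to 0.256.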

How the results depend on the processing

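Of the 45 log2 fold changes of the 9 genes (5 comparisons), 34 kept their direction in every fit checked and 11, none above 0.04 in size, changed sign in at least 1. The fits with a marker covariate were checked for direction only for Mapt with acetate in PBS-injected mice. With 1 mouse left out these 11 ranged as follows: Cdk5 from -0.019 to 0.010, Cdk5r1 from -0.076 to 0.033 for tau on the control diet; Bin1 from -0.023 to 0.094, Gsk3b from -0.010 to 0.063, Cdk5r1 from -0.057 to 0.022 for tau on the acetate diet; Cdk5 from -0.0090 to 0.036, Cdk5r1 from -0.094 to 0.0092 for acetate in PBS-injected mice; Mapt from -0.028 to 0.046, App from -0.033 to 0.029, Cdk5 from -0.031 to 0.0093 for acetate in tau-injected mice; Cdk5r1 from -0.048 to 0.058 for the interaction. Mapt for acetate in tau-injected mice was also 0.0037 without the filter and 0.00077 on the 6 compared mice. The cause was not tested. Mapt for acetate in PBS-injected mice stayed called with DESeq2 (adjusted p = 0.0165), its size factors, no filter and the 6 compared mice, and in 8 of 12 fits with 1 mouse left out. Every fit that lost the call left out 1 of the 6 compared mice. All fits without a tau-injected mouse kept the call, but those mice are outside this comparison. The count of the 9 called there was 0 at an adjusted p below 0.05 and 0 with either marker covariate, and ranged from 0 to 1 with 1 mouse left out. The replicate number shared by mice marked no known pairing, and with a replicate block Mapt was -0.18 there (adjusted p = 0.0719). The block changed no call among the 9 genes, gave 2 listed genes for the interaction (Dclk1 and Tubb4a), and moved the count over all genes from 2 to 9 for tau on the control diet and from 230 to 349 for the interaction. Deviations from the group means correlated at -0.09 to 0.14 between mice with a shared number, and each mouse correlated best with its own number for 6 of 6 mice between PBS-acetate and PBS-control and for 0 of 6 in each of the other 3 comparisons, a hint from the data and not the design.

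For all genes, tau on the control diet called 2, and 86 with DESeq2, 35 on the 6 compared mice, 0 at an adjusted p below 0.05 and 0 to 16 with 1 mouse left out. Tau on the acetate diet called 20, and 37 without the filter, 112 with DESeq2, 0 at 0.05 and 0 to 93 with 1 mouse left out, and 1 listed gene (Dcx) with DESeq2 or on the 6 compared mice, 0 to 1 with 1 mouse left out. Acetate in PBS-injected mice called 1303, and 541 at 0.05 and 15 to 1425 with 1 mouse left out (15 without PBS-acetate mouse 2), with 21 listed genes, 11 at 0.05 and 0 to 22. Acetate in tau-injected mice called 9, and 56 without the filter, 175 with DESeq2, 2 on the 6 compared mice, 3 at 0.05 and 1 to 66 with 1 mouse left out, with 2 listed genes by DESeq2 and 0 to 1 with 1 mouse left out. The interaction called 230, and 434 with DESeq2, 43 at 0.05 and 8 to 442 with 1 mouse left out, with 1 listed gene, 3 without the filter, 5 with DESeq2, 0 at 0.05 and 0 to 4 with 1 mouse left out. With 3 mice a group, the unadjusted 95% intervals of the 9 genes had a median half-width of 0.11 (log2) in each of the 4 comparisons between groups and 0.15 for the interaction, and differences larger than these could still miss the adjusted threshold.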
